A study of Homo sapiens with 34 samples.

Results

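REG4, PLA2G2A and DSCAM-AS1 are 3 of the 26336 genes in a table of read counts from 4 human prostate cell lines. They were taken from the table by symbol, after measured values of these libraries had shown each of them raised in LNCaP cells on a calcium phosphate surface in stripped serum, or lowered there by androgen. The LNCaP values behind that choice are therefore given as a description, with no test. The report follows the 3 genes through all 17 groups and 34 libraries.

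RNA was poly(A)-selected and sequenced from RWPE, a non-tumorigenic prostate epithelial line, LNCaP, from a lymph node metastasis and labelled as an early adenocarcinoma model, VCaP, and MDAPCa2a. The last 2 come from bone metastases. The surface under the cells was plastic or a coat of amorphous calcium phosphate (ACP), a mineral like that of bone. Cells received a control medium, a medium whose serum had been stripped with charcoal and dextran to remove steroids, or that stripped medium plus androgen. The androgen is labelled 100 mM and is called DHT in the titles and testosterone in the treatment labels. RWPE was grown on plastic and on ACP in control medium and on ACP with androgen. LNCaP and VCaP were grown on plastic in control medium and in stripped serum, and on ACP in control medium, in stripped serum and with androgen. MDAPCa2a had the same groups except ACP in control medium, and its plastic was protein-coated while its ACP was not. No line carried an added transgene or deletion in the labels, and each line is a single established culture, so the lines are not replicates of a disease stage. Of the groups, 15 held 2 libraries, RWPE on ACP with androgen had 3, and a single library, with no replicate, stands for VCaP on stripped-serum plastic. The labels do not say whether replicates came from separate cultures, so p-values measure the spread between these libraries, which may be technical. In bulk RNA, fewer cells making a transcript and less transcript per cell cannot be told apart.

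Library totals were 15.4 M to 44.8 M counts, with the plastic control libraries at 34.9 M to 44.8 M. The plastic control libraries stood apart from all others in other ways too. FGG, a liver transcript, averaged 1.89 to 2.63 CPM in the 4 plastic control groups and had 0 reads in 12 of the 13 other groups, with 1 read in the remaining group. Plastic control is also labelled as continuous culture and every other group as day 4. In each comparison against plastic control, this difference between libraries and the culture condition cannot be told apart. ERG, which is fused and overexpressed in VCaP, was at 126 to 882 CPM in VCaP libraries and at 2.32 CPM or less in those of the other lines. All 7 luminal prostate markers had at least 5 CPM in every group of the 3 tumour lines, and all 3 basal markers had that level in every RWPE group. RWPE also had 6 of the luminal markers at that level in control medium and 4 with androgen, and tumour line groups had 0 to 2 of the basal ones. Summed luminal markers were at 1476 CPM or less in RWPE and at least 2523 CPM in the tumour lines. Summed basal markers were at least 3349 CPM in RWPE and 37.2 CPM or less in the tumour lines. CPM here are counts scaled to a common library size after TMM scaling over all 34 libraries.

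REG4 encodes a secreted C-type lectin of the regenerating (REG) family, made by cells of the gut lining and known as a marker of several gastrointestinal tumours and of advanced prostate cancer. PLA2G2A encodes the group IIA secreted phospholipase A2, which cleaves membrane phospholipids, releases fatty acids such as arachidonate for prostaglandin synthesis, and kills bacteria. DSCAM-AS1 is a long noncoding RNA read from inside the neuronal adhesion gene DSCAM on the other strand, and is best known as an estrogen receptor target in luminal breast cancer. In prostate cells, androgen acts through a nuclear receptor that raises some genes, KLK3 (prostate-specific antigen) among them, and lowers others.

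In the GENCODE v29 annotation (GRCh38, while the counts were made on hg19 per the submitters' processing notes), REG4 lies on chromosome 1 from 119794018 to 119811660 on the minus strand, with 4 annotated transcripts. PLA2G2A lies on the same chromosome from 19975431 to 19980416, also on the minus strand, with 8 transcripts. DSCAM-AS1 lies on chromosome 21 from 40383083 to 40385358 on the plus strand and has 4 transcripts. It sits wholly inside DSCAM, which runs from 40010999 to 40847139 on the minus strand, and 0 bases of its exons overlap exons of DSCAM. Whether the authors' counting used strand is not given in the sources used here, so unspliced DSCAM reads over DSCAM-AS1 could not be told apart from its own.

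The regions upstream of REG4 and PLA2G2A are shown because both genes were lower with androgen in LNCaP and their levels followed each other closely in VCaP. RefSeq's table of start-site windows (GRCh38.p14) matched 2 of the 3 genes, REG4 with 1 start and PLA2G2A with 3. Each line is the 250 bases before an annotated start, 5′ to 3′ on the gene's strand. The REG4 window is chr1:119811461-119811710, and those of PLA2G2A are chr1:19980435-19980684 for the most upstream start and chr1:19979619-19979868 for the most downstream one. These are RefSeq starts. By the GENCODE spans above, the REG4 window lies partly inside the gene and the downstream PLA2G2A window wholly inside. Capitals mark matches on either strand to 1 of 3 motifs. The androgen receptor site was searched as AGAACA, a short core of that element. A forkhead site, bound by factors such as FOXA1, was searched as TGTTTAC. The box that many tissue-specific promoters carry near the start was searched as TATAAA.
REG4: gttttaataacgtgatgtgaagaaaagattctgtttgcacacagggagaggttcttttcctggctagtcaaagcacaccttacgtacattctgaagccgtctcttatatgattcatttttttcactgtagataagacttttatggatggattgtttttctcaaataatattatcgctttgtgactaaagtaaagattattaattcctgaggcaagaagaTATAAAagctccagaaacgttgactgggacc
PLA2G2A, upstream start: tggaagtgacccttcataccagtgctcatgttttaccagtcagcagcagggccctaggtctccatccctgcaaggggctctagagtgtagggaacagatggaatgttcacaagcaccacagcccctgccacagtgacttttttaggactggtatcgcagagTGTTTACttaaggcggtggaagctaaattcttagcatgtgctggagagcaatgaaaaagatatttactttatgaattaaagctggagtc
PLA2G2A, downstream start: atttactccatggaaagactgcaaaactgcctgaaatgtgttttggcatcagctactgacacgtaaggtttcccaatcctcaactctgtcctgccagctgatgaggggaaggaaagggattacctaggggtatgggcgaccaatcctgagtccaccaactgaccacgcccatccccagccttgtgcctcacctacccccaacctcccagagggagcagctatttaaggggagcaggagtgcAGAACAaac
REG4 held a TATAAA at base 220 of its window and neither of the other motifs. The upstream PLA2G2A window held TGTTTAC at base 162, the downstream window held AGAACA at base 242, and the window of the middle start held none of the 3 motifs. Among 35116 windows of the same length, 12.4% held AGAACA, 2.98% held TGTTTAC and 10.7% held TATAAA. A match describes the letters only.

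**Figure D1:**
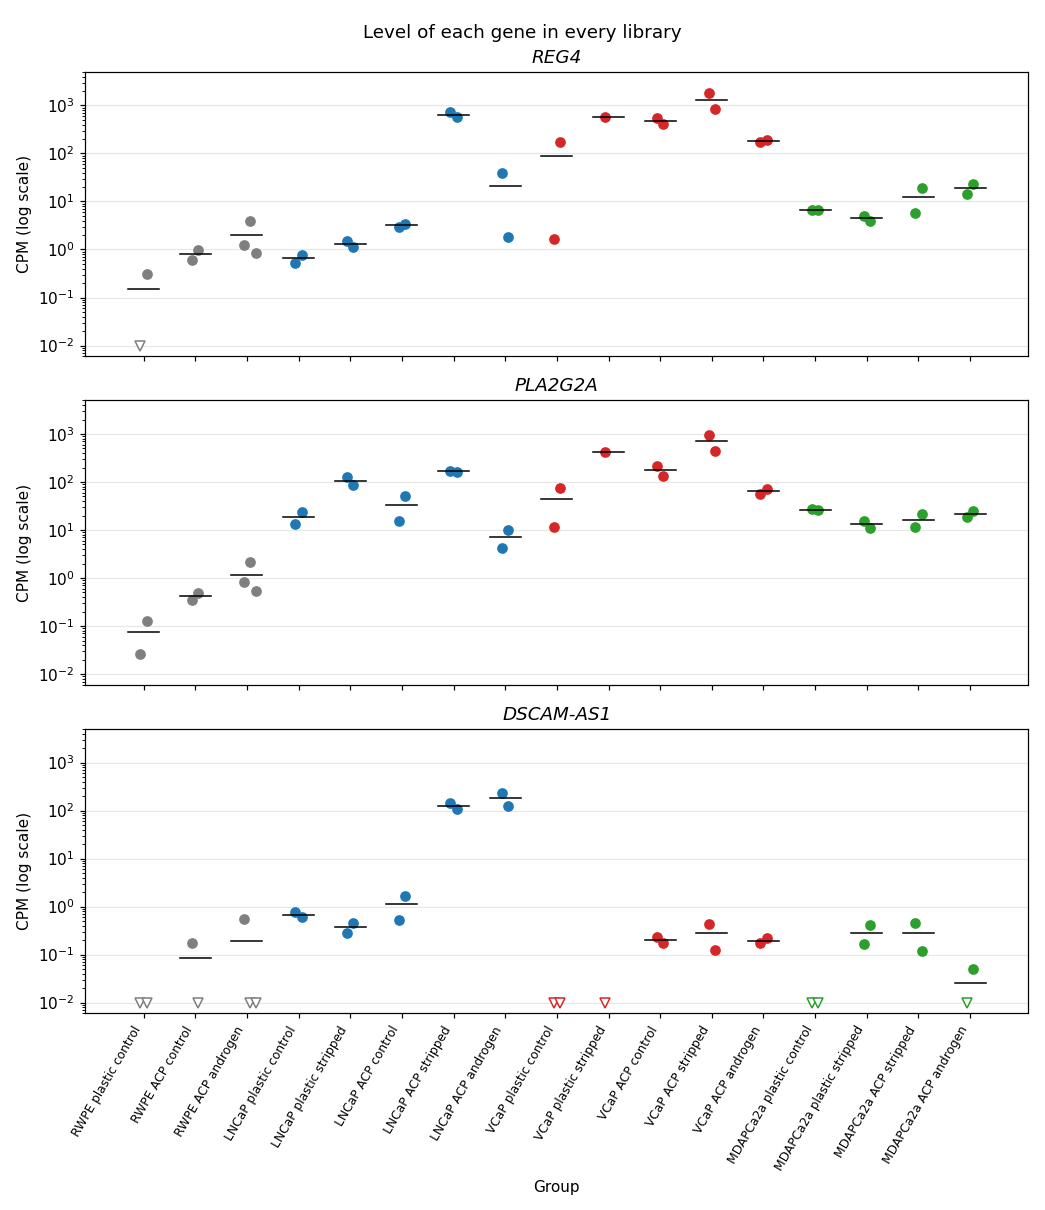
Level of REG4, PLA2G2A and DSCAM-AS1 (CPM, log scale) in each of 34 libraries, ordered by the 17 groups; filled points are libraries, bars are group means and open triangles at the bottom are libraries with 0 reads. REG4 and PLA2G2A were highest in VCaP on ACP in stripped serum, while DSCAM-AS1 passed 2 CPM in 4 libraries, all of LNCaP on ACP without or with androgen in stripped serum.

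REG4, the secreted lectin, was high in LNCaP on ACP in stripped serum, intermediate in 1 androgen library on ACP, and at or below 3.43 CPM in the other 7 libraries of the line. On plastic it stood at 0.528 and 0.772 CPM in control medium and at 1.49 and 1.12 CPM in stripped serum. On ACP it was at 2.90 and 3.43 CPM in control medium and at 718 and 571 CPM in stripped serum, which is 22196 and 16304 reads. Neither the surface alone nor stripped serum alone came near that level, and the 2 high libraries lay far above the 8 others. The log2 difference was 8.95 ± 1.14 (SE) against plastic in stripped serum and 7.65 ± 1.05 against ACP in control medium. Over all genes, 6.12% were called in the first of these comparisons and 5.37% in the second.

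With androgen added on ACP, REG4 was at 39.8 CPM in one LNCaP library and at 1.80 CPM in the other. Both lay under the stripped-serum libraries, but they differed from each other 22.2-fold. The log2 difference from stripped serum was -4.96 ± 0.91, and it ran from -8.51 without the first androgen library to -4.01 without the second. Of all genes, 7.73% were called for androgen in LNCaP. Against ACP in control medium the log2 difference was 2.69 ± 0.90, a value that the first androgen library set: without it the difference was -0.86. The share of genes called in that comparison was 15.1%.

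The LNCaP comparisons not themselves used in the choice showed no call for REG4 by edgeR's quasi-likelihood test with Benjamini-Hochberg adjustment. Each shares a group of libraries with a comparison that was used, so these results are not independent of the choice. Stripped serum on plastic gave a log2 difference of 1.08 ± 1.23 (adjusted p 0.64, 95% interval -1.62 to 3.78), where 9.45% of genes were called. ACP against plastic in control medium gave 2.38 ± 1.11 (adjusted p 0.167), where 12.6% were called. In both, the libraries did not overlap, but the counts behind them were 22 to 94 reads.

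VCaP was the line with the most REG4. In control medium on plastic it was at 1.63 CPM in replicate 1 and at 173 CPM in replicate 2, a 106-fold gap inside a single group. The library on plastic in stripped serum held 576 CPM. On ACP the gene was at 554 and 412 CPM in control medium, at 1791 and 845 CPM in stripped serum and at 171 and 191 CPM with androgen. The order on ACP was therefore the same as in LNCaP between stripped serum and androgen, from a far higher level in control medium. Both androgen libraries lay below both stripped ones, with a log2 difference of -2.86 ± 1.26 that missed the threshold (adjusted p 0.137, 95% interval -5.66 to -0.06), against 17.5% of genes called. The same difference passed without the plastic control group in the fit (adjusted p 0.00138) and in the fit of all lines (adjusted p 0.0492). Stripped serum against control medium on ACP gave 1.47 (adjusted p 0.563, 95% interval -1.20 to 4.13, 0.82% of genes called). ACP against plastic gave 1.22 ± 1.52 in stripped serum (adjusted p 1, 0% called, 511 of 15614 genes at an unadjusted p under 0.05) and 2.53 ± 1.24 in control medium (adjusted p 0.688, 0.0448% called). DESeq2 called 4 genes in the first of these and 41 in the second. Without replicate 2 of plastic control, the last difference was 8.26 (adjusted p 0.00338).

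MDAPCa2a held little REG4 in any condition. The libraries were at 6.72 and 6.78 CPM on plastic in control medium, 4.98 and 3.92 CPM on plastic in stripped serum, 5.85 and 18.7 CPM on ACP in stripped serum and 13.98 and 23.3 CPM on ACP with androgen. The androgen libraries overlapped the stripped ones, and the log2 difference was 0.58 ± 0.44 (adjusted p 0.968, 95% interval -0.42 to 1.57), in a comparison with 0% of genes called, 236 of 13626 at an unadjusted p under 0.05, and 3 called by DESeq2. ACP against plastic in stripped serum gave 1.53 ± 0.46 (adjusted p 0.243, 0.00734% called by edgeR; adjusted p 0.0332 by DESeq2). Stripped serum on plastic gave -0.57 ± 0.45 (adjusted p 0.604, 1.58% called).

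RWPE held the least, from 0 to 3.99 CPM over 7 libraries, or 0 to 68 reads. Its highest group mean, 2.03 CPM with androgen, was 0.154% of the mean of VCaP on ACP in stripped serum. No RWPE comparison called REG4: androgen against control medium on ACP gave 1.38 ± 0.84 (adjusted p 0.259, 19.1% of genes called) and ACP against plastic gave 2.34 ± 1.06 (adjusted p 0.221, 4.16% called). RWPE had no group in stripped serum without androgen, so androgen and the change of medium cannot be told apart there. The same holds for every value given for androgen in RWPE.

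Between lines, REG4 was higher in VCaP than in LNCaP. On ACP in control medium the log2 difference was 7.25 ± 1.34, in a comparison with 53.3% of genes called. It stayed between 7.02 and 7.45 without any single library of either group. It is given with no test, because these LNCaP libraries were part of the choice. On plastic in control medium it was 7.06 ± 1.38 (adjusted p 1.34e-04, 52.6% called), but 1.33 (adjusted p 0.369) without VCaP replicate 2. MDAPCa2a lay above LNCaP by 3.37 ± 1.28 on plastic (adjusted p 0.0378, 40.2% called), a call that was lost without any of the 4 libraries (adjusted p 0.0826 to 0.176). With androgen on ACP, MDAPCa2a lay below VCaP by -3.28 ± 1.10 (adjusted p 0.0154, 51.4% called), a call lost without either MDAPCa2a library (adjusted p 0.0598 and 0.108). On plastic it was lower than VCaP by -3.69 ± 1.13 (adjusted p 0.00804, 52.4% called) although the libraries overlapped. Without VCaP replicate 2 the difference was 2.04 (adjusted p 0.127), and the call was also lost without either MDAPCa2a library (adjusted p 0.0588 and 0.0602). LNCaP against RWPE on plastic was not called (2.04 ± 1.95, adjusted p 0.386), where 57.4% of genes were. In the order of the 17 group means, 7 of the 16 neighbouring pairs were apart in all their libraries and 9 overlapped. VCaP on ACP in stripped serum stood alone at the top, LNCaP in the same condition overlapped VCaP on plastic in stripped serum, and from VCaP on ACP with androgen down to MDAPCa2a on plastic in control medium each group overlapped the next.

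PLA2G2A, the secreted phospholipase, was present in all 3 tumour lines and followed the medium more than the surface in LNCaP. On plastic it was at 13.2 and 24.2 CPM in control medium and at 127 and 85.9 CPM in stripped serum. This comparison was not used in the choice of the gene, and the rise was called, with a log2 difference of 2.55 ± 0.50 (adjusted p 0.0102, 5.71-fold between means). The stripped libraries served as the reference in another comparison that was used. The call was lost without replicate 1 of the control medium group (2.17, adjusted p 0.112) or replicate 1 of the stripped group (2.29, adjusted p 0.0862).

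On ACP, LNCaP libraries were at 15.4 and 49.9 CPM in control medium, 170 and 163 CPM in stripped serum and 4.15 and 10.2 CPM with androgen. The stripped libraries were the highest of the line and the androgen libraries the lowest, with no overlap between the 3 groups. The log2 difference was -4.56 ± 0.56 for androgen against stripped serum and 2.34 ± 0.50 for stripped serum against control medium. Androgen against control medium gave -2.21 ± 0.52, and -1.16 without replicate 2 of the control medium group. ACP added little in stripped serum (0.68 ± 0.47, with the libraries apart), where the REG4 difference in the same libraries was 8.95. In control medium ACP gave 0.90 ± 0.49 (adjusted p 0.232), and -0.18 without replicate 2 of ACP. These control medium libraries on ACP were also part of the choice.

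In VCaP on ACP the groups stood in the same order, stripped serum above control medium above androgen, each at a higher level than in LNCaP. PLA2G2A was at 11.8 and 76.2 CPM on plastic in control medium and at 430 CPM in the stripped library. On ACP it was at 219 and 131 CPM in control medium, 955 and 443 CPM in stripped serum and 55.95 and 71.7 CPM with androgen. As for REG4, replicate 1 of plastic control was the low one, and that group had the lowest mean of the line (44.0 CPM, against 63.8 CPM with androgen). Androgen lowered PLA2G2A by a log2 difference of -3.45 ± 0.72 (adjusted p 0.012), and both androgen libraries lay below both stripped ones. This comparison shares no library with the choice of the gene. The adjusted p ran from 0.0172 to 0.0737 when 1 of the 4 libraries was left out, passing in 1 of the 4 fits. Stripped serum against control medium gave 2.01 ± 0.68 (adjusted p 0.178; 0.0333 without the plastic control group in the fit). ACP against plastic gave 0.72 ± 0.83 in stripped serum (adjusted p 1) and 2.05 ± 0.68 in control medium (adjusted p 0.623; log2 3.95 and adjusted p 0.0384 without replicate 2 of plastic control).

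In MDAPCa2a no comparison called PLA2G2A by edgeR. Its libraries were at 27.1 and 25.8 CPM on plastic in control medium and at 15.5 and 11.1 CPM in stripped serum. On ACP they were at 11.4 and 21.1 CPM in stripped serum and at 18.2 and 24.6 CPM with androgen. Stripped serum on plastic gave -0.96 ± 0.28, with no overlap, with an adjusted p of 0.139 by edgeR and 0.0379 by DESeq2. Androgen gave 0.37 ± 0.29 (adjusted p 0.968, 95% interval -0.28 to 1.01), and ACP in stripped serum gave 0.37 ± 0.29 (adjusted p 0.522).

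The differences between lines were tested in the fit of all 34 libraries. The androgen effect on PLA2G2A in VCaP was more negative than in MDAPCa2a by -3.85 ± 0.87 (adjusted p 0.00781, 7.86% of genes called), and the call held without each of the 8 libraries (adjusted p 0.00474 to 0.0484). For REG4 the same difference was -3.46 ± 1.49 (adjusted p 0.16). The effect of stripped serum on plastic in MDAPCa2a was lower than in LNCaP by -3.51 ± 0.86 for PLA2G2A (adjusted p 0.0324, 1.81% called), a comparison chosen after its opposite signs had been seen, which passed in 1 of 8 fits without a library (adjusted p 0.0491 to 0.2). For REG4 that difference was -1.64 ± 1.80 (adjusted p 0.881). Of 18 androgen-induced reference genes none was called with androgen in MDAPCa2a (median log2 -0.16, -0.01 over all genes), but none of the 13626 genes tested was. In LNCaP 16 rose, with 7.73% of all genes called, and in VCaP 15, with 17.5%.

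In RWPE, PLA2G2A lay between 0.0265 and 2.11 CPM, or 1 to 36 reads per library. Androgen against control medium on ACP was not called (adjusted p 0.147, 95% interval of the log2 difference -0.05 to 3.05), and ACP against plastic gave 2.35 ± 0.94 (adjusted p 0.17). LNCaP on plastic was 7.83 ± 1.03 higher than RWPE in log2 (adjusted p 4.68e-07), with 4 of 4 fits without a library still calling it. On ACP in control medium VCaP was higher than LNCaP by 2.42 ± 0.62, given with no test because these LNCaP libraries were part of the choice. On plastic the difference was not called (1.24 ± 0.60, adjusted p 0.0864). MDAPCa2a was lower than VCaP with androgen by -1.57 ± 0.61 (adjusted p 0.0344), a call lost without any of the 4 libraries (adjusted p 0.0506 to 0.168) and with DESeq2 (adjusted p 0.0511). On plastic, MDAPCa2a was not called against LNCaP (0.50 ± 0.60, adjusted p 0.538) or VCaP (-0.74 ± 0.59, adjusted p 0.311). In the order of group means, 9 of 16 neighbouring pairs were apart. VCaP on ACP in stripped serum came first and VCaP on plastic in stripped serum second, VCaP on ACP in control medium overlapped LNCaP on ACP in stripped serum, and the 3 RWPE groups came last.

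**Figure D2:**
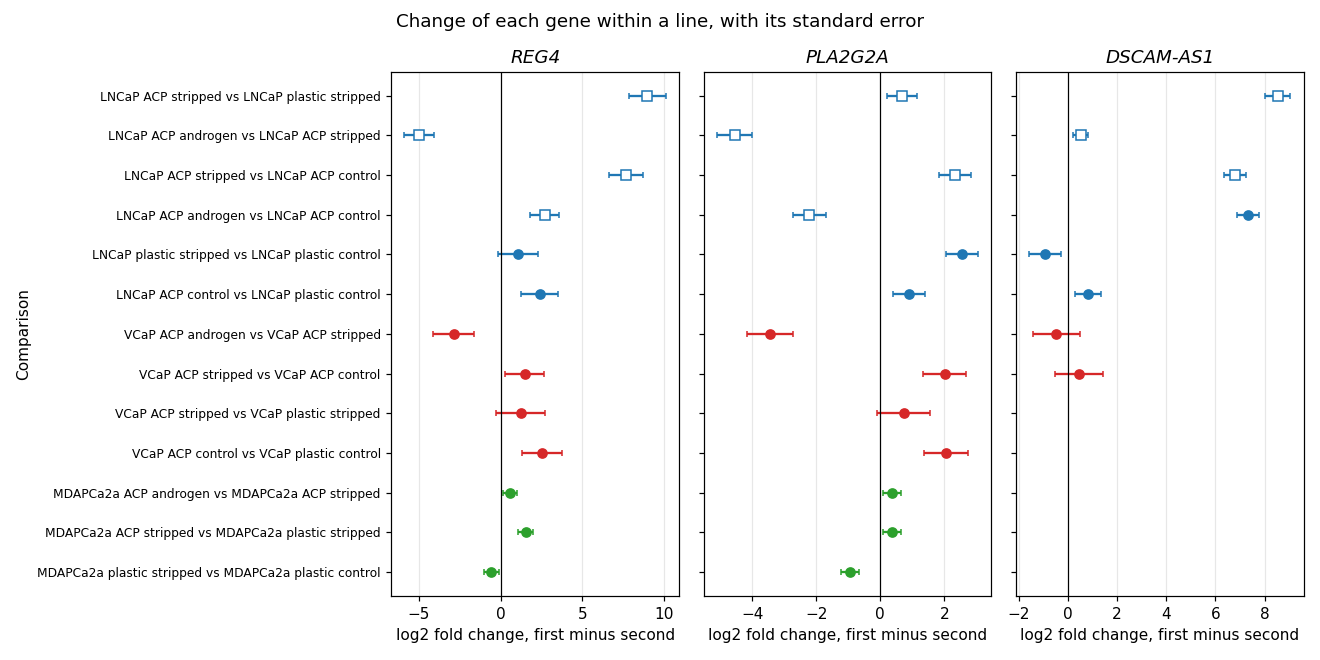
Log2 fold change of each gene (first group minus second, whiskers are ± 1 SE) in the 13 comparisons within LNCaP (blue), VCaP (red) and MDAPCa2a (green). Open squares are comparisons used in choosing the gene and filled circles are the others. Filled circles of LNCaP, among them DSCAM-AS1 for androgen against control medium on ACP, still share libraries with comparisons that were used. DSCAM-AS1 is drawn only where it passed the count filter and both groups held reads; androgen moved PLA2G2A by -4.56 in LNCaP, -3.45 in VCaP and 0.37 in MDAPCa2a.

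DSCAM-AS1, the noncoding RNA, was a transcript of LNCaP on ACP once serum was stripped. On plastic the LNCaP libraries held 36 and 27 reads in control medium (0.760 and 0.596 CPM) and 11 and 9 reads in stripped serum (0.282 and 0.459 CPM). On ACP they held 15 and 46 reads in control medium (0.536 and 1.68 CPM), 4445 and 3050 reads in stripped serum (144 and 107 CPM) and 6741 and 3840 reads with androgen (233 and 125 CPM). The 4 libraries on ACP in stripped serum, with or without androgen, were thus the only high ones, and the androgen libraries overlapped those without androgen.

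The log2 difference of ACP from plastic in stripped serum was 8.53 ± 0.52, and that of stripped serum from control medium on ACP was 6.80 ± 0.45. Androgen against stripped serum gave 0.51 ± 0.32, with overlapping libraries. Androgen against control medium on ACP gave 7.31 ± 0.46, and 6.73 to 8.33 without 1 library, given with no test because the control medium libraries were part of the choice. On plastic, stripped serum against control medium was not called and pointed down (-0.93 ± 0.66, adjusted p 0.423). ACP against plastic in control medium was not called either (0.80 ± 0.53, adjusted p 0.322), and was -0.24 without replicate 2 of ACP. Both comparisons share a group of libraries with one used in the choice, so they are not independent of it. Among the 5 LNCaP conditions, the 2 that joined the coated surface with stripped medium were the high ones.

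Outside LNCaP the gene was close to the limit of detection. The 24 libraries of the other lines held 0 to 10 reads each and 69 reads in all, with a highest level of 0.563 CPM. No read was found in plastic control of RWPE, VCaP and MDAPCa2a or in VCaP on plastic in stripped serum, which allows up to 0.0388, 0.0396, 0.0429 and 0.144 CPM, taking 3 counts over the libraries of a group as the limit. Limits and intervals of this kind cover counting error only. On plastic in control medium LNCaP was at least 17.5-fold higher than RWPE (adjusted p 4.53e-04), at least 17.1-fold higher than VCaP (adjusted p 5.76e-04) and at least 15.8-fold higher than MDAPCa2a (adjusted p 0.00107). These calls rest on 63 reads in LNCaP. On ACP in control medium VCaP was lower than LNCaP by -2.42 ± 0.85, on 9 and 61 reads, and by -3.02 to -1.38 without 1 library. This is given with no test, because these LNCaP libraries were part of the choice. MDAPCa2a with androgen held 1 read against 9 in VCaP, and on these few reads the difference was not called (-2.68 ± 1.88, adjusted p 0.246). In VCaP, androgen (-0.48 ± 0.96, adjusted p 0.761) and stripped serum on ACP (0.45 ± 0.96, adjusted p 0.851) were not called. VCaP on ACP was not called against plastic either, on 12 and 0 reads in stripped serum (adjusted p 1) and 9 and 0 reads in control medium (adjusted p 0.593). The gene did not pass the count filter in the fits of MDAPCa2a and RWPE. No difference of androgen effects between VCaP and MDAPCa2a is given for it, since the groups compared held only 1 to 12 reads each. In its order of group means only 2 of 16 neighbouring pairs were apart, LNCaP on ACP in stripped serum above LNCaP on ACP in control medium, and LNCaP on plastic in control medium above that in stripped serum.

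The genes around DSCAM on chromosome 21 were looked at for ACP in LNCaP and for androgen in VCaP. Of 9 genes from B3GALT5 to TMPRSS2, 7 were tested in LNCaP and none was called for ACP against plastic in stripped serum (median log2 0.49, 0.01 over all genes), where 6.12% of all genes were called, so that 0 of 7 is near the overall share. MX2, an interferon-induced GTPase, had a log2 difference of 3.42 ± 1.10 (adjusted p 0.0835) on 13 reads against 1. DSCAM itself, an adhesion molecule of neurons, pointed the same way as DSCAM-AS1 without passing, at 1.94 ± 0.89 against plastic in stripped serum (adjusted p 0.197) and 1.962 ± 0.91 against ACP in control medium (adjusted p 0.237). It was at 0.366 CPM in LNCaP on ACP in stripped serum and 0.387 CPM with androgen, or 22 and 23 reads, against 7495 and 10581 reads of DSCAM-AS1. In VCaP, where DSCAM was at 3.53 CPM on ACP in stripped serum, androgen lowered it by -2.93 ± 0.61 (adjusted p 0.012). Among the 9 in VCaP, androgen also lowered B3GALT5, a galactosyltransferase (-2.37, adjusted p 0.0062), and IGSF5, a junction protein (-1.53, adjusted p 0.0224), and raised TMPRSS2, an androgen-induced protease (2.91, adjusted p 0.00171), where 17.5% of all genes were called. ESR1, the estrogen receptor gene that DSCAM-AS1 is known to follow in breast cancer, was at 0.366 CPM in LNCaP on ACP in stripped serum and at 0.117 CPM with androgen. Of 14 genes of the estrogen receptor list, 12 were tested in LNCaP and none was called for ACP against plastic in stripped serum, where 6.12% of all genes were. Androgen, with 7.73% of genes called, raised GREB1, a coactivator (2.04, adjusted p 3.87e-04), and lowered MYB, a transcription factor (-2.08, adjusted p 0.0019).

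**Figure D3:**
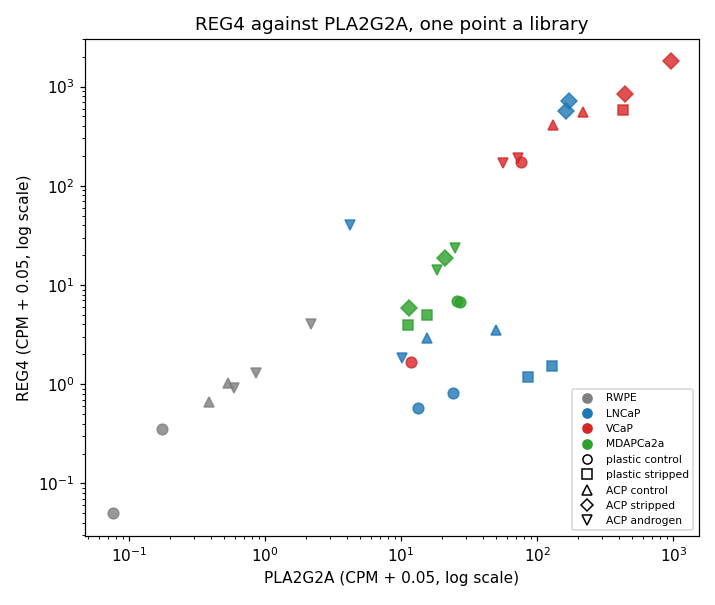
REG4 against PLA2G2A (CPM + 0.05, both axes log scale), with 1 point for each of 34 libraries, coloured by line and shaped by condition. VCaP and RWPE libraries each lie along a line, while LNCaP on plastic in stripped serum has high PLA2G2A (85.9 and 127 CPM) with low REG4 (1.12 and 1.49 CPM).

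REG4 and PLA2G2A followed each other most closely in VCaP and RWPE. In LNCaP both were highest on ACP in stripped serum and lower with androgen, but differed on plastic in stripped serum. Pearson's r of log2 CPM was 0.91 over the 9 VCaP libraries and 0.97 over the 7 RWPE libraries, where both genes are at a few reads. It was 0.55 over 8 libraries of MDAPCa2a and 0.39 over 10 of LNCaP. These values describe libraries that share lines, conditions and depth, and carry no test. On plastic in stripped serum LNCaP had high PLA2G2A and low REG4, and with androgen the library with more REG4 (39.8 CPM) had less PLA2G2A (4.15 CPM). DSCAM-AS1 had an r of 0.76 with REG4 and -0.12 with PLA2G2A over the LNCaP libraries. Each r over LNCaP includes the libraries on which the genes were chosen, so it is in part set by that choice.

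Of the other members of the 2 protein families, none was called in the direction of REG4 or PLA2G2A for androgen in LNCaP or VCaP. Over all genes, 7.73% and 17.5% were called there. The 4 other REG genes measured, REG1A, REG1B, REG3A and REG3G, had no group mean above 0.350 CPM, and 0 of 4 were tested in LNCaP. Of 11 other secreted phospholipase genes and their receptor, 3 were tested in LNCaP and 5 in VCaP. PLA2G12A, a family member found in many tissues, was raised by androgen in LNCaP (0.68, adjusted p 0.0341), the opposite direction to PLA2G2A. PLA2G5, another secreted phospholipase, fell by 3.15 on the log2 scale with stripped serum on plastic (adjusted p 0.0111), also opposite to PLA2G2A. In VCaP none of 5 was called with androgen. PLA2G2F, a close relative, pointed the same way as PLA2G2A without a call, at -1.53 ± 0.85 for androgen in LNCaP (adjusted p 0.301), -1.45 ± 1.11 in VCaP (adjusted p 0.384) and 1.38 ± 0.85 for stripped serum on plastic in LNCaP (adjusted p 0.347), at 2.24 CPM or less in these lines. PLA2R1, the receptor of secreted phospholipases, was at 0.0322 CPM or less in every LNCaP group.

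Among 17 arachidonate enzymes, 12 were tested in LNCaP and 1 was called with androgen on ACP (median log2 -0.01, the same as over all genes at -0.01), near the 7.73% of all genes. That gene was HPGD, which inactivates prostaglandins, at 1.45 CPM in stripped serum and 60.3 CPM with androgen (5.36 ± 0.30, adjusted p 7.28e-06). It also fell with stripped serum on ACP (-3.64 ± 0.29, adjusted p 1.06e-04) and on plastic (-4.08 ± 0.32, adjusted p 6.12e-05), a course opposite to that of PLA2G2A. PTGS2, the inducible cyclooxygenase, was at 0.0183 CPM or less in LNCaP outside plastic control. In VCaP, where 17.5% of all genes were called with androgen, 3 of 13 tested enzymes rose, with TBXAS1, thromboxane synthase, the largest (4.31 ± 0.37, adjusted p 3.93e-04), and 2 fell, among them LTA4H, an enzyme of leukotriene synthesis (-1.98 ± 0.24, adjusted p 0.00141).

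Androgen reference genes set the frame for these values. In LNCaP on ACP, androgen raised 16 of 18 androgen-induced genes and lowered none (median log2 2.10, -0.01 over all genes). Of 9 androgen-repressed genes it lowered 5 and raised 1, in a comparison with 7.73% of all genes called. The 5 were OPRK1, an opioid receptor (-3.97), DDC, which makes dopamine and serotonin (-3.75), UGT2B17 (-2.27) and UGT2B15 (-1.89), which conjugate steroids, and ACKR3, a chemokine receptor (-2.11); UGT2B28 rose by 5.43. Stripped serum raised these 5 on plastic and on ACP, where 9.45% and 5.37% of all genes were called, and PLA2G2A rose too. For ACP against plastic in stripped serum OPRK1 fell (-1.55, adjusted p 0.0498) while UGT2B17 rose (1.21, adjusted p 0.0267). In stripped serum, KLK3 in LNCaP stood at 1668 CPM on the coated surface and 129 CPM on plastic (3.73 ± 0.19, adjusted p 8.68e-06). Of the 18 androgen-induced genes 6 were raised by ACP there, where 6.12% of all genes were called. In VCaP, where 17.5% of all genes were called, androgen raised 15 of the 18 induced genes (median 1.38, -0.03 over all genes). Of the 9 repressed genes 3 fell, OPRK1 (-2.50), DDC (-2.84) and MET, a growth factor receptor (-1.91), and 3 rose. These lists were written with results of these data known and are no independent support.

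REG4 and PLA2G2A are also genes of the gut lining, so its cell types were looked at. In LNCaP on ACP in stripped serum all 3 Paneth cell markers, DEFA5, DEFA6 and ITLN2, had 0 reads. Of 5 goblet cell markers 3 were at 0 there, and the summed level of the 5 was 4.90 to 6.05 CPM, against 8.62 to 9.54 CPM on plastic in stripped serum. In each of these groups only 1 of the 5 markers had a mean of at least 5 CPM. Of 15 goblet cell genes, 1 of 8 tested rose with ACP in LNCaP in stripped serum, where 6.12% of all genes were called. It was AGR2, a secretory pathway protein (1.06 CPM on plastic, 25.2 CPM on the coated surface, log2 4.64 ± 0.42, adjusted p 2.87e-04). AGR2 rose further with androgen (1.92 ± 0.33, adjusted p 0.00753), where REG4 was lower. In VCaP the summed goblet cell markers were at 4.63 to 5.29 CPM on ACP in stripped serum and at 35.1 to 35.6 CPM with androgen, where REG4 and PLA2G2A were lower. With androgen only 1 of the 5 markers had a mean of at least 5 CPM, and SPINK4 and CLCA1 had 0 reads. The sum therefore does not describe the 5 markers as a set. Of 10 tested goblet cell genes 3 rose and 3 fell with androgen there, where 17.5% of all genes were called. Among the Paneth cell genes in VCaP, LYZ, lysozyme, rose with androgen (3.66 ± 0.68, adjusted p 0.00807), while DEFA5 and DEFA6 had 0 reads. Neuroendocrine markers were low in LNCaP, with a sum over 5 genes of 2.98 to 3.27 CPM on ACP in stripped serum and 3.87 to 5.12 CPM with androgen. CHGA, a granule protein, was called there for ACP against plastic in stripped serum (adjusted p 0.0494), the direction of REG4, on 18 reads against 0. VCaP held far more, 380 to 939 CPM on ACP in stripped serum and 175 to 231 CPM with androgen, and 5 of 10 neuroendocrine genes fell with androgen there, against 17.5% of all genes called in either direction (1374 of 15614 lower), led by CHGA (-3.11, adjusted p 0.0146), and NCAM1, an adhesion molecule (-2.79, adjusted p 0.0103). In VCaP these markers thus moved with REG4 and PLA2G2A, and their part in the result was not tested. ERG, the VCaP marker, was at 0.0647 to 0.280 CPM in LNCaP on ACP in stripped serum, where REG4 was at 571 to 718 CPM.

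**Figure D4:**
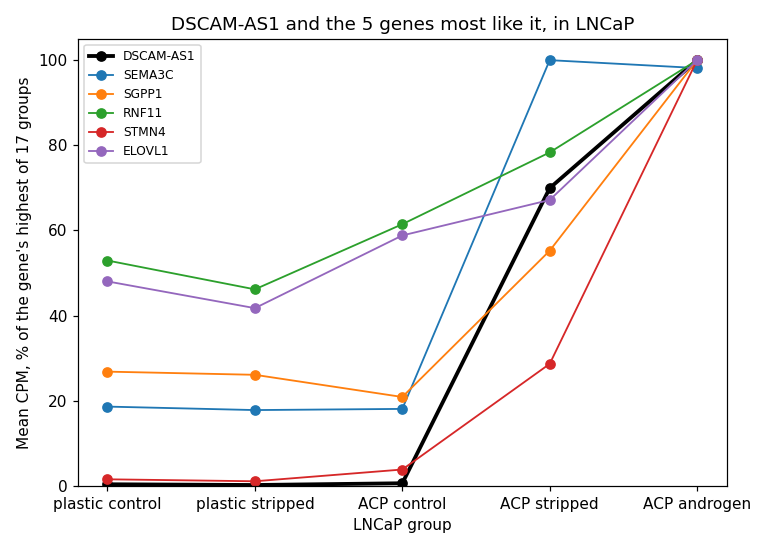
Mean CPM of DSCAM-AS1 (black) and of the 5 genes most like it, as a percentage of each gene's highest group of 17, in the 5 LNCaP groups. DSCAM-AS1 is under 1% of its highest mean in 3 groups and at 69.9% and 100% in the other 2, while the other genes start from higher levels.

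The genes whose pattern was most like each of the 3 were found by Pearson's r of log2 CPM over the 17 group means, among 13218 genes with at least 5 CPM in some group, and the values carry no test. For REG4 these were IPO5P1, SLC44A3, SYTL2, CRYZL1 and RAB27B, with r from 0.92 to 0.89. SYTL2, a vesicle transport protein, shared both ends of the pattern, at 14.0 CPM on plastic and 41.7 CPM on ACP in stripped serum in LNCaP, and at 339 and 51.0 CPM in VCaP on ACP without and with androgen. For PLA2G2A they were C7orf73, HOXC4, LRRC31, ZNF345 and FAM102B, with r from 0.96 to 0.93. HOXC4, a homeobox factor, was at 10.7 CPM in LNCaP on ACP in stripped serum and at 5.11 CPM with androgen. For DSCAM-AS1 they were SEMA3C, SGPP1, RNF11, STMN4 and ELOVL1, with r from 0.91 to 0.86. SEMA3C, a secreted semaphorin, came closest, at 302 and 296 CPM in LNCaP on ACP in stripped serum without and with androgen and at 53.7 to 56.2 CPM in the 3 other LNCaP groups. SGPP1, a sphingosine phosphate phosphatase, was at 171 and 309 CPM in the same 2 groups and at 64.6 to 83.0 CPM in the others.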

How the data were processed

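Analysis began from a single table of raw read counts deposited by the authors, with 26336 gene symbols and 34 libraries. Libraries were poly(A)-selected per the labels' protocols, and STAR, HTSeq and build hg19 are named in the submitters' processing notes. Annotation and strandedness of the counting are not stated in those sources. The members, the gene lists and the tests were chosen with earlier results of these data known.

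Genes were tested with edgeR 4.0.16 (R 4.3.3; quasi-likelihood F test, TMM, filterByExpr with a minimum count of 10, Benjamini-Hochberg adjusted p below 0.05) on the whole table. Comparisons within a line used the groups of that line, and comparisons of lines or of effects used all 34 libraries. Standard errors are the log2 fold change over the square root of F. Log2 CPM used a prior count of 1. Of each list the called genes with the largest changes are named, up to 3 in each direction, and the 5 genes with the highest r are named as most alike. Other list genes (PTGS2, PLA2R1, PLA2G2F, MX2, ESR1, UGT2B15, UGT2B17, ACKR3 and some comparisons of AGR2 and KLK3 among them) were named after their values were seen. Alternatives were RLE size factors, no count filter, DESeq2 1.42.0, a fit of all lines, a fit without plastic control, a replicate block and each library left out. The steps were tested on simulated counts.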

Additional observations from a re-analysis of the deposited data

Results flagged for a closer look

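The measured change of PLA2G2A with androgen differed between the bone metastasis lines. The log2 change on ACP was -3.45 ± 0.72 in VCaP (-3.90 to -2.75 without 1 library) and 0.37 ± 0.29 in MDAPCa2a. The test of the difference gave -3.85 ± 0.87 (adjusted p 0.00781 in the fit of all lines). In MDAPCa2a androgen called 0 of 13626 genes, the androgen-induced reference genes included. Whether the difference is particular to PLA2G2A was not tested.

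The log2 change of PLA2G2A with stripped serum on plastic was 2.55 ± 0.50 in LNCaP (adjusted p 0.0102) and -0.96 ± 0.28 in MDAPCa2a, which did not pass (adjusted p 0.139). Their difference was -3.51 ± 0.86 (adjusted p 0.0324). It was chosen for testing after both values had been seen, passed in 1 of 8 fits without a library (adjusted p up to 0.2), and uses plastic control libraries, which stand apart from the rest.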

How the results depend on the processing

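With RLE size factors all 63 values of the 3 genes kept their direction and side of the threshold. The groups of 2 leave the calls below to single libraries, and depth limits DSCAM-AS1 outside LNCaP, where no library held over 10 reads.

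Without the count filter more calls passed: REG4 and PLA2G2A for ACP in control medium in LNCaP (2.37 and 0.89), REG4 for androgen in VCaP (-2.86), PLA2G2A for stripped serum on ACP (1.961) and ACP in control medium (2.03) in VCaP, REG4 for ACP in stripped serum (1.50146) and PLA2G2A for stripped serum on plastic (-0.97) in MDAPCa2a, PLA2G2A between VCaP and LNCaP on plastic (1.23), and the differences between lines of REG4 for androgen (-3.45) and DSCAM-AS1 for stripped serum (6.90, against a group at 0). DESeq2 added REG4 for ACP in stripped serum (1.53) and PLA2G2A for stripped serum on plastic (-0.97) in MDAPCa2a. It lost PLA2G2A between MDAPCa2a and VCaP with androgen (-1.64), and gave -2.35 for DSCAM-AS1 between VCaP and LNCaP on ACP. In VCaP, REG4 for androgen and PLA2G2A for stripped serum on ACP passed in the fit of all lines (-2.86 and 2.00) and without plastic control (-2.85 and 1.97).

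Whether replicate numbers pair the libraries is not settled, and the main fits left pairing out. Deviations of replicate 1 from replicate 2 correlated above 0.1 in 6 of 25 pairs of groups (-0.337 to 0.420). With the replicate block, PLA2G2A passed for androgen against control medium (1.73) and ACP (2.501) and REG4 for ACP (2.66) in RWPE. PLA2G2A also passed between VCaP and LNCaP on plastic (1.63). REG4 between MDAPCa2a and LNCaP on plastic (3.17) and PLA2G2A between MDAPCa2a and VCaP with androgen (-1.58) no longer passed. The block moved the genes called from 128 to 340 for stripped serum on ACP in VCaP. In RWPE it moved them from 2730 to 5741 for androgen against control medium and from 595 to 2661 for ACP.

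Leaving out single libraries gave these ranges of the log2 difference. REG4 ran from 1.33 to 8.05 between VCaP and LNCaP on plastic, -4.68 to 2.04 between MDAPCa2a and VCaP on plastic, 3.12 to 3.67 between MDAPCa2a and LNCaP, and -3.70 to -2.96 between MDAPCa2a and VCaP with androgen. In LNCaP on ACP it ran from -8.51 to -4.01 for androgen against stripped serum and -0.86 to 3.63 against control medium. It ran from 1.54 to 8.26 for ACP in control medium in VCaP, 0.49 to 2.11 for ACP and -0.0043 to 1.60 for androgen in MDAPCa2a. PLA2G2A in LNCaP ran from 2.17 to 3.07 for stripped serum on plastic, 1.73 to 3.39 for stripped serum on ACP, -5.32 to -4.06 for androgen against stripped serum, -2.98 to -1.16 against control medium and -0.18 to 1.48 for ACP in control medium. It ran from -3.90 to -2.75 for androgen and 1.26 to 3.95 for ACP in control medium in VCaP. In MDAPCa2a it ran from -0.12 to 0.72 for ACP, and in RWPE from 0.72 to 1.87 for androgen against control medium. Between lines it ran from -0.66 to 2.03 (VCaP and LNCaP on plastic), -1.53 to 1.16 (MDAPCa2a and VCaP on plastic), -1.81 to -1.35 (MDAPCa2a and VCaP with androgen) and -4.01 to -3.13 (stripped serum on plastic, MDAPCa2a against LNCaP). DSCAM-AS1 ran from 6.21 to 7.81 for stripped serum on ACP, -0.027 to 0.90 for androgen and -0.24 to 1.365 for ACP in control medium in LNCaP, and -3.02 to -1.38 between VCaP and LNCaP on ACP. The causes were not tested.

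Counts over all genes moved more. For ACP in stripped serum in LNCaP, 897 genes became 1827 without the filter, 1733 with DESeq2, 342 in the fit of all lines and 372 without plastic control. For androgen in LNCaP, 1133 became 2028, 1733, 739 and 696. For androgen in VCaP, 2727 became 4545 in the fit of all lines. Without the filter, LNCaP counts also went from 787 to 1732 for stripped serum on ACP, from 1385 to 2193 for stripped serum on plastic and from 1845 to 2933 for ACP in control medium. The 787 became 1307 with DESeq2 and 504 without plastic control, and the 1845 became 647 in the fit of all lines. In VCaP, 128 for stripped serum on ACP became 927 without the filter, 845 with DESeq2, 1057 in the fit of all lines and 326 without plastic control, 7 for ACP in control medium became 72, 41 and 64 in the first 3 of these, and 0 for ACP in stripped serum became 1 without the filter and 4 with DESeq2. In MDAPCa2a, in the same first 3, 0 for androgen became 9, 3 and 1, 1 for ACP became 320, 206 and 27 (0 without plastic control), and 215 for stripped serum on plastic became 855, 594 and 393. In RWPE, 595 for ACP became 1226 without the filter and 1334 with DESeq2, and 2730 for androgen became 1402 without plastic control and 0 without either library on ACP in control medium. The difference between MDAPCa2a and LNCaP in stripped serum called 313 genes, and 491 with DESeq2. Of the 5 genes most like each of the 3, 4 (REG4), 3 (PLA2G2A) and 3 (DSCAM-AS1) remained over 34 libraries, and 2, 0 and 0 with Spearman's rho.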
